A study of Mus musculus with 2 samples.

Results

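The lymph node homing and egress genes followed here are 6 genes chosen by name, namely Ccr7, S1pr1, S1pr4, Klf2, Klf3 and Cxcr4, and all 6 were found by symbol among the 55357 features of the deposited matrices. Single cells had been prepared from the hearts of wild-type (WT) mice 7 days after myocardial infarction, the death of heart muscle when its blood supply is cut off. One library came from mice injected with anti-PD1, an antibody against the inhibitory T cell receptor PD1, and 1 library from mice injected with anti-IgG, against which it was set; all of these mice carried the infarct. Strain, age, sex, dose and the number of hearts per library are not given in the sources used here. The hearts were digested with enzymes, red cells were lysed and dead cells removed, per the labels' protocols, and the cell type is labelled as T cells.

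T cells find lymph nodes and leave them again by following gradients of lipid and protein attractants. Ccr7 is the receptor for the chemokines Ccl19 and Ccl21, which draw T cells into and through lymph nodes, and S1pr1 is the receptor for sphingosine 1-phosphate that T cells need to leave them again. Klf2 is the transcription factor that keeps S1pr1 transcribed in resting T cells, and naive T cells are known for high levels of Ccr7, S1pr1 and Klf2. S1pr4 is a second sphingosine 1-phosphate receptor of lymphocytes, Klf3 is a transcriptional repressor of the Klf family, and Cxcr4 is the receptor for Cxcl12, a chemokine that holds lymphocytes in bone marrow and draws them into tissues.

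There were 6026 anti-PD1 barcodes with 29046341 UMIs in total and 4380 anti-IgG barcodes with 22806806 UMIs, where a UMI, or unique molecular identifier, tags a single RNA molecule at capture. After filters on depth and mitochondrial RNA, 5352 of 5835 anti-PD1 cells and 3992 of 4309 anti-IgG cells (91.7% and 92.6%) carried a UMI of Cd3d, Cd3e or Cd3g, parts of the T cell receptor complex; these Cd3-positive cells are used throughout, with medians of 3864 and 4078.5 UMIs per cell. Each group is 1 library, so no difference between libraries has a replicate check, no test of the treatment was possible and no p-value is given. Levels are UMIs of a gene per 1000000 UMIs of the same cells (CPM), and all intervals are 95% intervals for counting error only; they leave out variation between animals, preparations and cells. The libraries differed in other ways: 61.3% of anti-PD1 and 21.8% of anti-IgG cells held a UMI of Nr4a1, a gene induced early by T cell receptor signals, 3.55% and 9.64% held at least 5 UMIs of the heat-shock genes Hspa1a and Hspa1b, and 47 barcodes occurred in both. Summed markers of B cells (4 of 4 genes above 0 in both libraries) reached 129.9 CPM in anti-PD1 and 58.1 CPM in anti-IgG Cd3-positive cells; myeloid markers (5 of 5) reached 611 and 926 CPM, and fibroblast markers (4 of 4) 34.6 and 134 CPM.

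Cells were placed in gates by marker UMIs that include none of the 6 genes. The naive gate (Lef1, Dapl1, Igfbp4 and Actn1) held 1427 anti-PD1 and 1153 anti-IgG cells, and the effector gate (Ccl5, Nkg7, Gzmk, Gzmb, Cxcr6, Id2, S100a4 and Ifng) 1372 and 1090. The Foxp3 gate, for the transcription factor of regulatory T cells, held 349 and 284 cells, and the gamma-delta gate (Trdc, Trdv4 and Trgv6, segments of the gamma-delta T cell receptor) 789 and 387. A gate on the NK receptor genes Ncr1 and Klrb1c held 100 and 67 cells, and 1315 and 1011 cells met no gate or held markers of both the naive and the effector gate. Trac, the constant segment of the alpha-beta receptor, was at 107 CPM in anti-PD1 and 125 CPM in anti-IgG cells of the gamma-delta gate, against 276 and 331 CPM in the effector gate, so the gamma-delta gate was not free of alpha-beta receptor RNA.

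The genes lie on different chromosomes of the mouse genome (GRCm38): Ccr7 at chr11:99144196-99155077, S1pr1 at chr3:115710433-115715072, S1pr4 at chr10:81497747-81500132 and Cxcr4 at chr1:128588199-128592293, all on the minus strand, and Klf2 at chr8:72319033-72321656 and Klf3 at chr5:64803388-64832901 on the plus strand. The Klf3 locus overlaps 2 other annotated genes, C230096K16Rik on the same strand and Gm20033 on the other, so how reads were divided among them is uncertain; the other 5 loci overlap none. Promoter sequence (RefSeq, GRCm38.p6) was found for 4 of the 6, and the 250 bases before the RefSeq start are shown for the regulators Klf2 and Klf3, which were highest in the naive gate, and for Cxcr4, the member with the largest anti-PD1 over anti-IgG ratio. In Klf2, capitals mark a match to the motif of MEF2 factors, CTA and TAG with any 4 bases between them. In Klf3 they mark CACCC or its reverse complement GGGTG, the box that KLF factors bind. In Cxcr4 they mark the motif of NRF1, GCGC, any 1 base and TGCGC.
Klf2, chr8:72318812-72319061, plus strand: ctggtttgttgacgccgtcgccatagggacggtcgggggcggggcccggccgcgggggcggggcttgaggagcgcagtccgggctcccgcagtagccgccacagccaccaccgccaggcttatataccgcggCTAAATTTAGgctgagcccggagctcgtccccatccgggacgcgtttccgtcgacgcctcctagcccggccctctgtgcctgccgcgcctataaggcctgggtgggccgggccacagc
Klf3, chr5:64803271-64803520, plus strand: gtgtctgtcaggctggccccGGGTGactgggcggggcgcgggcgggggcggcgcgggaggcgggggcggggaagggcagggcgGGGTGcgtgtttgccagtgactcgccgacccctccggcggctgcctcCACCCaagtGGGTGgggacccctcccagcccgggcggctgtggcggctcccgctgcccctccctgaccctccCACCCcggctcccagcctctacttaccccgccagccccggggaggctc
Cxcr4, chr1:128592300-128592549, minus strand: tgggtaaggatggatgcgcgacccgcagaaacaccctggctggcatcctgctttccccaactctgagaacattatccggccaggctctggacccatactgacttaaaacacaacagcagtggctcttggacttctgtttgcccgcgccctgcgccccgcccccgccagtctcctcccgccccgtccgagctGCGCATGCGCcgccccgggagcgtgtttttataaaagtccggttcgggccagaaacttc
On both strands, 3.20% of 32851 mouse promoter windows of the same length held the MEF2 letters, 52.0% the KLF letters and 3.74% the NRF1 letters. The Klf3 window held 5 KLF matches, between 48 and 230 bases before the start, while those of Klf2, Cxcr4 and S1pr4 held 1 each. A match describes the letters of the window and shows no binding. The RefSeq start differs from the first base of the gene given above, so the Klf2 and Klf3 windows run past that base into the annotated gene.

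Across gates, 4 of the 6 genes marked the naive gate in both libraries: Ccr7, S1pr1, Klf2 and Klf3 were at least 1.5-fold higher in naive than in effector cells. For comparison, 8.84% of genes tested in anti-PD1 cells and 8.84% in anti-IgG cells were that much higher in the naive gate (genes with at least 50 summed UMIs). S1pr4 differed little between these gates, and Cxcr4 had its lowest level in the naive gate of both libraries.

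Ccr7 showed the widest range between gates of the 6. Its level in the naive gate was 1325 CPM in the anti-PD1 library and 815 CPM in the anti-IgG library. In the effector gate it was 128 CPM in anti-PD1 cells and 39.7 CPM in anti-IgG cells. Naive over effector, this was a ratio of 10.3 (9.595 to 11.2) in the anti-PD1 and 20.6 (17.8 to 23.9) in the anti-IgG library. From high to low the order was naive, unassigned, Foxp3, NK receptor, gamma-delta and effector in both libraries, and the only neighbours whose intervals overlapped were the NK receptor and gamma-delta gates. The Foxp3 gate stood between, at 354 CPM in anti-PD1 and 161 CPM in anti-IgG cells. In the gamma-delta gate Ccr7 was at 165 and 88.1 CPM, and in the NK receptor gate at 172 and 101 CPM. Few cells carried these low levels: the 1% of effector cells with most Ccr7 UMIs held 40.1% of them in the anti-PD1 and 51.04% in the anti-IgG library, and the corresponding 1% of gamma-delta cells 29.8% and 28.9%. In the NK receptor gate, 19 of 100 anti-PD1 and 6 of 67 anti-IgG cells held a Ccr7 UMI. There, 1 cell of each library held 31.0% and 51.02% of the Ccr7 UMIs.

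S1pr1, the egress receptor, was also highest in the naive gate. It reached 457 CPM there in anti-PD1 and 391 CPM in anti-IgG cells, against 113 and 108 CPM in the effector gate. The naive over effector ratios were 4.06 (3.72 to 4.43) and 3.62 (3.28 to 4.004). The gates below naive and unassigned lay close together. In anti-PD1 cells the Foxp3, effector, gamma-delta and NK receptor gates had 128, 113, 103 and 80.7 CPM, with overlapping intervals between each pair of neighbours. In anti-IgG cells the order was Foxp3, gamma-delta, effector and NK receptor, at 169, 144, 108 and 99.4 CPM, and the gamma-delta and effector intervals did not overlap.

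S1pr4 varied little over the gates. In anti-PD1 cells its levels ran only between 98.5 CPM in the NK receptor gate and 121 CPM in the effector gate, and in anti-IgG cells between 117 CPM in the naive gate and 162 CPM in the gamma-delta gate. Every pair of neighbours in either order had overlapping intervals, but gates farther apart did not always. In anti-IgG cells the naive interval (107 to 128 CPM) lay below those of the effector (141 to 163) and gamma-delta gates (147 to 179). Naive over effector, S1pr4 had a ratio of 0.877 (0.782 to 0.983) in anti-PD1 and 0.773 (0.688 to 0.867) in anti-IgG cells, so it did not share the naive pattern of its relative S1pr1.

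Klf2 followed the naive gate as S1pr1 did. Its level was 2278 CPM in anti-PD1 and 2229 CPM in anti-IgG naive cells, against 623 and 545 CPM in effector cells. The naive over effector ratios were 3.66 (3.52 to 3.798) and 4.09 (3.92 to 4.27). The lowest gate differed between the libraries: gamma-delta in anti-PD1 cells, at 498 CPM, and effector in anti-IgG cells, where the gamma-delta gate stood at 645 CPM. Klf3 had the mildest naive pattern of the 4, with 342 CPM in anti-PD1 and 377 CPM in anti-IgG naive cells. Effector cells held 172 and 179.9 CPM, a naive over effector ratio of 1.99 (1.84 to 2.15) and 2.097 (1.93 to 2.28). The gamma-delta gate was lowest for Klf3 in both libraries, at 83.8 and 121 CPM.

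Cxcr4 ran the other way. It had 57.97 CPM in anti-PD1 and 38.2 CPM in anti-IgG naive cells, the lowest gate in both, and the interval did not overlap that of the next gate. Effector cells held 126 and 52.1 CPM, for naive over effector ratios of 0.461 (0.401 to 0.529) and 0.734 (0.599 to 0.898). In anti-PD1 cells this ratio was past 1.5-fold, as for 26% of genes tested, and in anti-IgG cells, with 25.9% of genes that much lower, it was not. The NK receptor gate ranked first in both libraries, at 166 and 74.6 CPM, although its interval overlapped that of the second gate in anti-IgG cells.

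**Figure D1:**
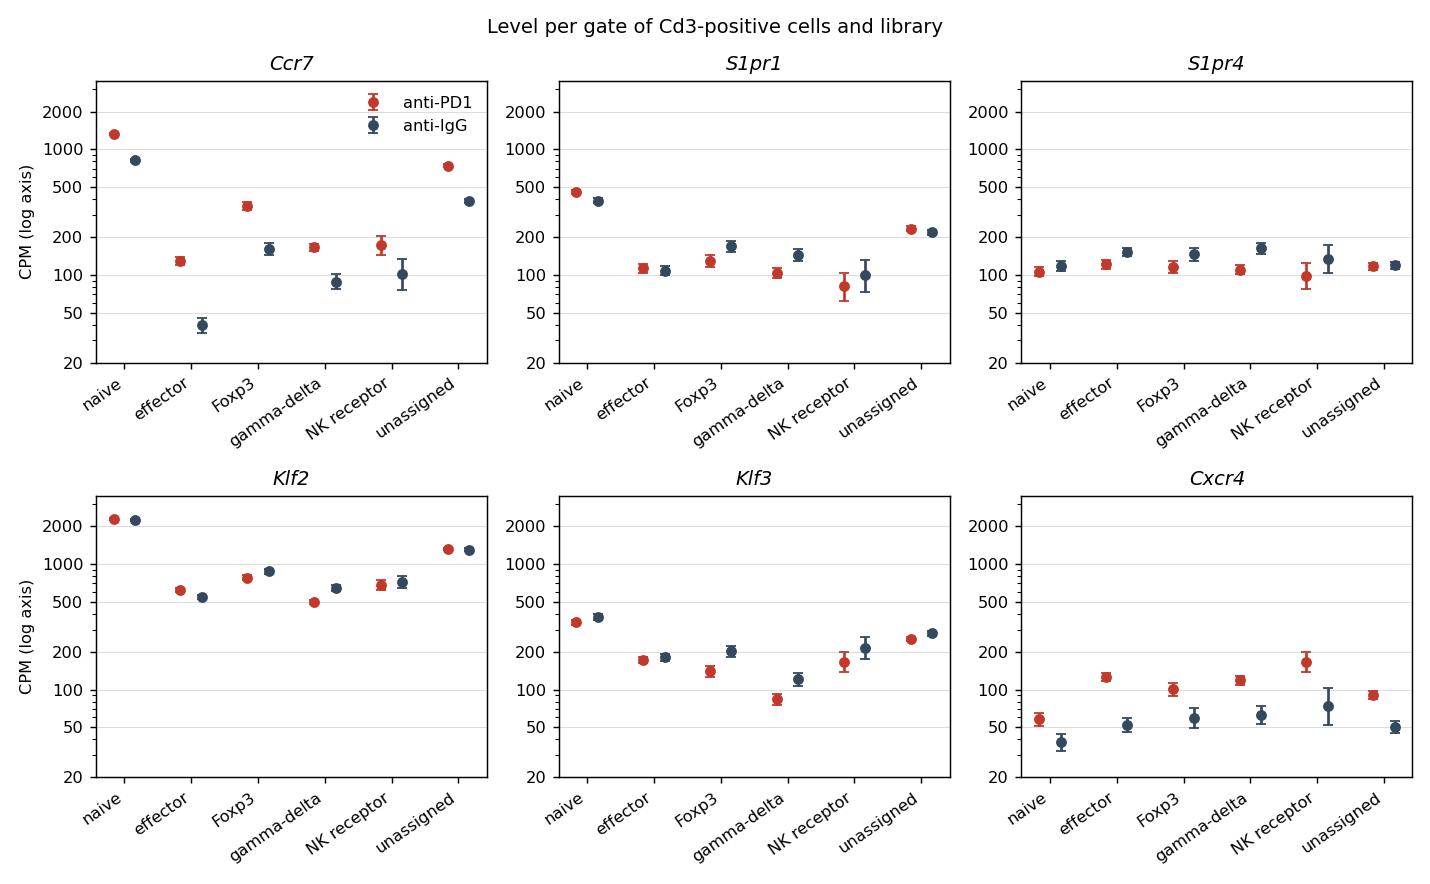
Level of each gene (CPM, log axis) in the 6 gates of Cd3-positive cells, with anti-PD1 in red left of anti-IgG in dark blue; points are the level of 1 library and bars 95% Poisson intervals for counting error. Ccr7, S1pr1, Klf2 and Klf3 are highest in the naive gate of both libraries, S1pr4 is nearly flat, and Cxcr4 is lowest in the naive gate.

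Within the naive and effector gates, cells were divided by Cd4 and by Cd8a and Cd8b1, which mark helper and cytotoxic T cells. Cells with UMIs of neither kind or of both were left out of this split. The naive gate gave 568 anti-PD1 and 529 anti-IgG CD4 cells, and 195 and 170 CD8 cells. The effector gate gave 385 and 514 CD4 cells, and 497 and 252 CD8 cells. Ccr7 was higher in CD8 than in CD4 naive cells, with 1913 against 1209 CPM in the anti-PD1 library and 1091 against 772 CPM in the anti-IgG library, ratios of 1.58 (1.48 to 1.69) and 1.41 (1.29 to 1.55). S1pr1 went the opposite way, with CD8 over CD4 naive ratios of 0.803 (0.697 to 0.923) in anti-PD1 and 0.696 (0.592 to 0.815) in anti-IgG cells. Its CD8 over CD4 ratios in the effector gate were 0.4705 (0.386 to 0.572) and 0.631 (0.493 to 0.802). The naive pattern of Ccr7 was steepest in anti-IgG CD4 cells, where 38 UMIs in 514 effector cells gave 17.04 CPM and a CD4 naive over CD4 effector ratio of 45.3 (32.8 to 64.3).

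Between the libraries, Ccr7 and Cxcr4 were higher in anti-PD1 than in anti-IgG Cd3-positive cells, while S1pr1, S1pr4, Klf2 and Klf3 differed by less than 1.5-fold. Ccr7 stood at 559.7 CPM (14712 UMIs) in the anti-PD1 and 329 CPM (6830 UMIs) in the anti-IgG library, a ratio of 1.701 (1.65 to 1.75). Cxcr4 stood at 100.3 CPM (2635 UMIs) in anti-PD1 and 51.2 CPM (1063 UMIs) in anti-IgG cells, a ratio of 1.96 (1.82 to 2.104). Of 12849 genes with at least 50 summed UMIs, 5.88% were at least 1.5-fold higher and 11.8% at least 1.5-fold lower in anti-PD1 cells; relative to the median gene the counts were 1007 higher and 1016 lower, against 756 and 1521 here. A ratio past 1.5-fold was therefore not rare between these libraries: 3.88% of genes had a higher ratio than Ccr7 and 2.57% a higher ratio than Cxcr4.

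The other members stayed near the middle of all genes, whose median log2 ratio was -0.13, a ratio of 0.916. S1pr1 had 211 CPM in anti-PD1 and 211 CPM in anti-IgG cells, a ratio of 1.001 (0.962 to 1.04). S1pr4 had 114 and 134 CPM, a ratio of 0.849 (0.806 to 0.894). Klf3 had 209 and 249 CPM, a ratio of 0.839 (0.808 to 0.872), and its ratio stayed below 1 relative to the median gene (0.916). Klf2 had 1129.98 and 1182 CPM, a ratio of 0.956 (0.9401 to 0.972) that turned to 1.04 relative to the median gene, so no direction is given for it.

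Ccr7 was higher in the anti-PD1 library in each of the 6 gates. In naive cells the ratio was 1.63 (1.56 to 1.69), in effector cells 3.23 (2.75 to 3.802), in Foxp3 cells 2.21 (1.94 to 2.51) and in unassigned cells 1.92 (1.83 to 2.01). The shares of genes at least 1.5-fold higher were 5.55%, 6.73%, 5.14% and 4.96% in these gates. In the effector gate the levels rest on 756 anti-PD1 and 192 anti-IgG UMIs, gathered in few cells as described above, and under a stricter gate, with at least 3 effector and 0 naive marker UMIs, the ratio was 3.82 (2.901 to 5.09). Among CD4 effector cells it was 6.73 (4.73 to 9.804), from 192 and 38 UMIs, and among CD8 effector cells 2.65 (2.01 to 3.55). The 38 UMIs are the low anti-IgG CD4 effector level described above. In CD4 and CD8 naive cells the ratios were 1.57 and 1.75. B cell markers differed in the same gates: their summed level was 174 CPM in anti-PD1 and 35.3 CPM in anti-IgG effector cells (65 and 13 cells with at least 2 UMIs), and 247 and 95.5 CPM in Foxp3 cells (38 and 18 cells). Ccr7 itself was at 1116 CPM in anti-PD1 and 528 CPM in anti-IgG cells with B cell markers and no Cd3 UMI. Without cells holding at least 2 UMIs of B, myeloid, endothelial or fibroblast markers, an alternative chosen after seeing the data, the Ccr7 ratio was 1.62 (1.55 to 1.697) in naive, 2.77 (2.33 to 3.31) in effector and 2.77 (2.31 to 3.34) in Foxp3 cells.

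Ccr7 ratios in the gamma-delta and NK receptor gates were less firm. They were 1.87 (1.61 to 2.19) and 1.699 (1.21 to 2.41), beside 5.93% and 10.5% of genes at least 1.5-fold higher. Among cells without an Nr4a1 UMI the gamma-delta ratio turned to 0.766 (0.529 to 1.09). In the NK receptor gate it turned to 0.938 (0.256 to 3.75) when each cell was thinned to 1000 UMIs, and to 0, with an upper bound of 1.10, among cells without an Nr4a1 UMI (0 anti-PD1 and 13 anti-IgG UMIs). It was 0.785 (0.430 to 1.44) without cells holding markers of other lineages. In naive cells the ratio without Nr4a1 cells was 1.67 (1.58 to 1.76) and in effector cells 3.01 (2.42 to 3.75), close to the values over all cells of those gates. In the Foxp3 gate it was higher, at 4.19 (3.35 to 5.25), from 623 CPM in 73 anti-PD1 and 149 CPM in 168 anti-IgG cells, and in unassigned cells it was 2.29 (2.15 to 2.45).

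Cxcr4 was likewise higher in the anti-PD1 library in all 6 gates. The ratios were 1.52 (1.25 to 1.85) in naive, 2.41 (2.09 to 2.796) in effector, 1.68 (1.34 to 2.103) in Foxp3 and 1.88 (1.57 to 2.27) in gamma-delta cells. In the NK receptor gate the ratio was 2.22 (1.52 to 3.32) and in unassigned cells 1.81 (1.59 to 2.07). Among cells without an Nr4a1 UMI the Foxp3 ratio was 1.08 (0.591 to 1.89) and the naive ratio 1.49 (1.14 to 1.93). The NK receptor ratio was then 1.34 (0.576 to 2.898), an interval that includes 1. CD4 naive cells had a ratio of 1.64 (1.19 to 2.27), while the interval in CD8 naive cells, 0.892 (0.542 to 1.47), included 1.

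Since Nr4a1 differed so widely between the libraries, the ratios were also taken over cells with no Nr4a1 UMI, which were shallower than the rest (a median of 3379 UMIs in anti-PD1 and 3920 in anti-IgG cells, against 4300 and 5008 in cells with 1). The Ccr7 ratio was then 2.26, that of Cxcr4 1.62, that of S1pr1 1.33 and that of Klf2 1.21. The part of Nr4a1-related changes in these ratios was not tested. Without cells holding at least 2 UMIs of B, myeloid, endothelial or fibroblast markers, Ccr7 had a ratio of 1.77 and Cxcr4 of 1.99, and without cells rich in Hspa1a and Hspa1b 1.73 and 1.95. With the gates given equal proportions in both libraries the ratios were 1.82 and 1.92.

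S1pr1, S1pr4, Klf2 and Klf3 each had ratios below 1 in the Foxp3 and gamma-delta gates. The median gene lay below 1 there too, at a log2 ratio of -0.10 in Foxp3 and -0.09 in gamma-delta cells. The gate ratios given here are not scaled to it. S1pr1 had a ratio of 0.761 (0.651 to 0.8896) in Foxp3 and 0.714 (0.621 to 0.822) in gamma-delta cells, against 1.17 (1.097 to 1.25) in naive cells. Klf2 had 0.882 (0.826 to 0.941) and 0.773 (0.725 to 0.825) in the same gates, against 1.02 (0.995 to 1.05) in naive and 1.14 (1.09 to 1.202) in effector cells. Klf3 had 0.689 (0.596 to 0.798) and 0.693 (0.595 to 0.809), and S1pr4 0.797 (0.675 to 0.942) and 0.679 (0.594 to 0.775). None of these 8 ratios was past 1.5-fold, beside 9.89% of all genes that were at least 1.5-fold lower in the Foxp3 gate and 8.83% in the gamma-delta gate, and the differences between gates were not tested. In the Foxp3 gate, 79.1% of anti-PD1 and 40.8% of anti-IgG cells held an Nr4a1 UMI. For S1pr1 and Klf2 the direction depended on those cells. Without them the ratio was 1.67 (1.27 to 2.19) for S1pr1 and 1.37 (1.203 to 1.56) for Klf2, from 73 anti-PD1 and 168 anti-IgG cells. Klf3 stayed lower in the anti-PD1 library without them, at 144 against 235 CPM. S1pr4 was then at 126 CPM in anti-PD1 and 138 CPM in anti-IgG cells, with overlapping intervals. Foxp3 cells without an Nr4a1 UMI were shallower, with medians of 2944 UMIs in anti-PD1 and 4213 in anti-IgG cells. Those with an Nr4a1 UMI had medians of 6318.5 and 8013. In the gamma-delta gate, 75.5% of anti-PD1 and 30.2% of anti-IgG cells held an Nr4a1 UMI. Without those cells the ratios remained below 1, at 0.719 (0.558 to 0.919) for S1pr1 and 0.649 (0.572 to 0.733) for Klf2. Fibroblast markers also differed in these gates, at 1.61 CPM in anti-PD1 and 534 CPM in anti-IgG Foxp3 cells (2 and 4 of 4 markers above 0, with Col3a1 at 0 in anti-PD1). In gamma-delta cells they were at 2.81 and 388 CPM (3 and 4 of 4, with Pdgfra at 0 in anti-PD1). In either gate, only 1 anti-PD1 and 2 anti-IgG cells held at least 2 such UMIs. The part of these markers was not tested.

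**Figure D2:**
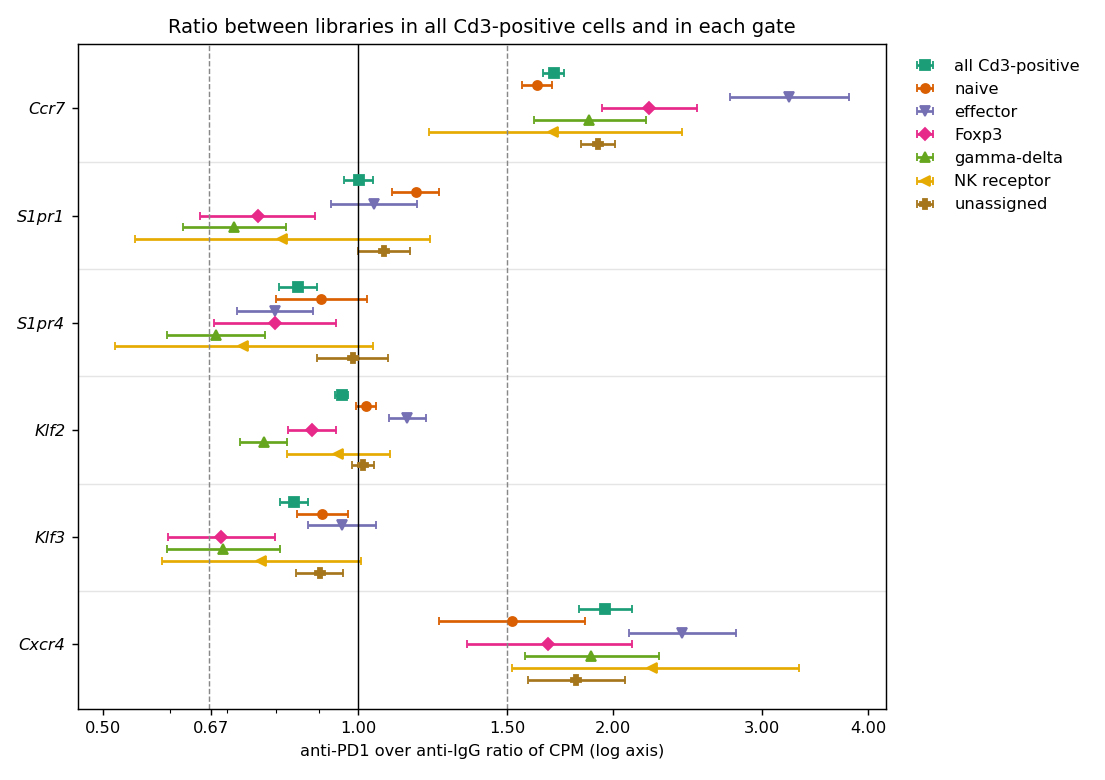
Anti-PD1 over anti-IgG ratio of each gene (log axis) in all Cd3-positive cells and in each gate; points are ratios of 2 libraries, bars exact 95% counting intervals, the solid line equal levels and the dashed lines 1.5-fold either way. Ccr7 and Cxcr4 lie right of 1 in every gate, while S1pr1, S1pr4, Klf2 and Klf3 lie left of 1 in the Foxp3 and gamma-delta gates.

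The share of cells in which a gene was seen was compared after each cell had been thinned to 1000 UMIs, which left out 52 anti-PD1 and 34 anti-IgG cells. Ccr7 was seen in 60.1% of anti-PD1 and 47.2% of anti-IgG naive cells, and at full depth in 83.95% and 79.01%. In the effector gate the thinned shares were 5.82% (4.63 to 7.198) and 2.69% (1.81 to 3.84), and at full depth 13.4% and 8.44%. In the gamma-delta gate the thinned share was 7.12% in anti-PD1 and 3.88% in anti-IgG cells, whereas at full depth the order was reversed, at 14.7% and 17.3%, so no order is read from these shares.

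Free RNA in droplets can give UMIs in cells that do not make a gene. Among cells with myeloid markers (C1qa, C1qb, Csf1r, Lyz2 and Cd68) and no Cd3 UMI, 1.41% of 71 anti-IgG cells (median 6595 UMIs) held a Ccr7 UMI, and after thinning 1.43% (0.0362 to 7.704), an interval that includes the share in anti-IgG effector cells (median 3912 UMIs). Of the 135 anti-PD1 cells of that kind (median 5555 UMIs), 125 could be thinned, and 0.8% (0.0203 to 4.38) of them held a Ccr7 UMI, an interval below that in anti-PD1 effector cells (median 3728 UMIs). Cells with fibroblast markers (Col1a1, Col3a1, Dcn and Pdgfra) and no Cd3 UMI held 1 Ccr7 UMI in 19 anti-PD1 cells and 0 in 20 anti-IgG cells, and 0 Cxcr4 UMIs in both. The Ccr7 share in those anti-PD1 cells was 5.26% (0.133 to 26.03). For Cxcr4, 0 of 19 and 0 of 20 cells allow a share of up to 17.6% and 16.8%.

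For Cxcr4 the thinned share was 11.5% of anti-PD1 and 5.005% of anti-IgG effector cells, and 5.14% and 3.24% of naive cells. At full depth these shares were 34.2% and 17.1%, and 17.1% and 12.3%. Klf2 was seen in 77.9% of anti-PD1 and 79.7% of anti-IgG naive cells after thinning and in 34.8% and 30.95% of effector cells. S1pr1 was seen in 36.998% and 33.6% of naive cells, and in 10.2% and 11.4% of effector cells. The naive and effector intervals did not overlap for Klf2 or S1pr1 in either library.

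**Figure D3:**
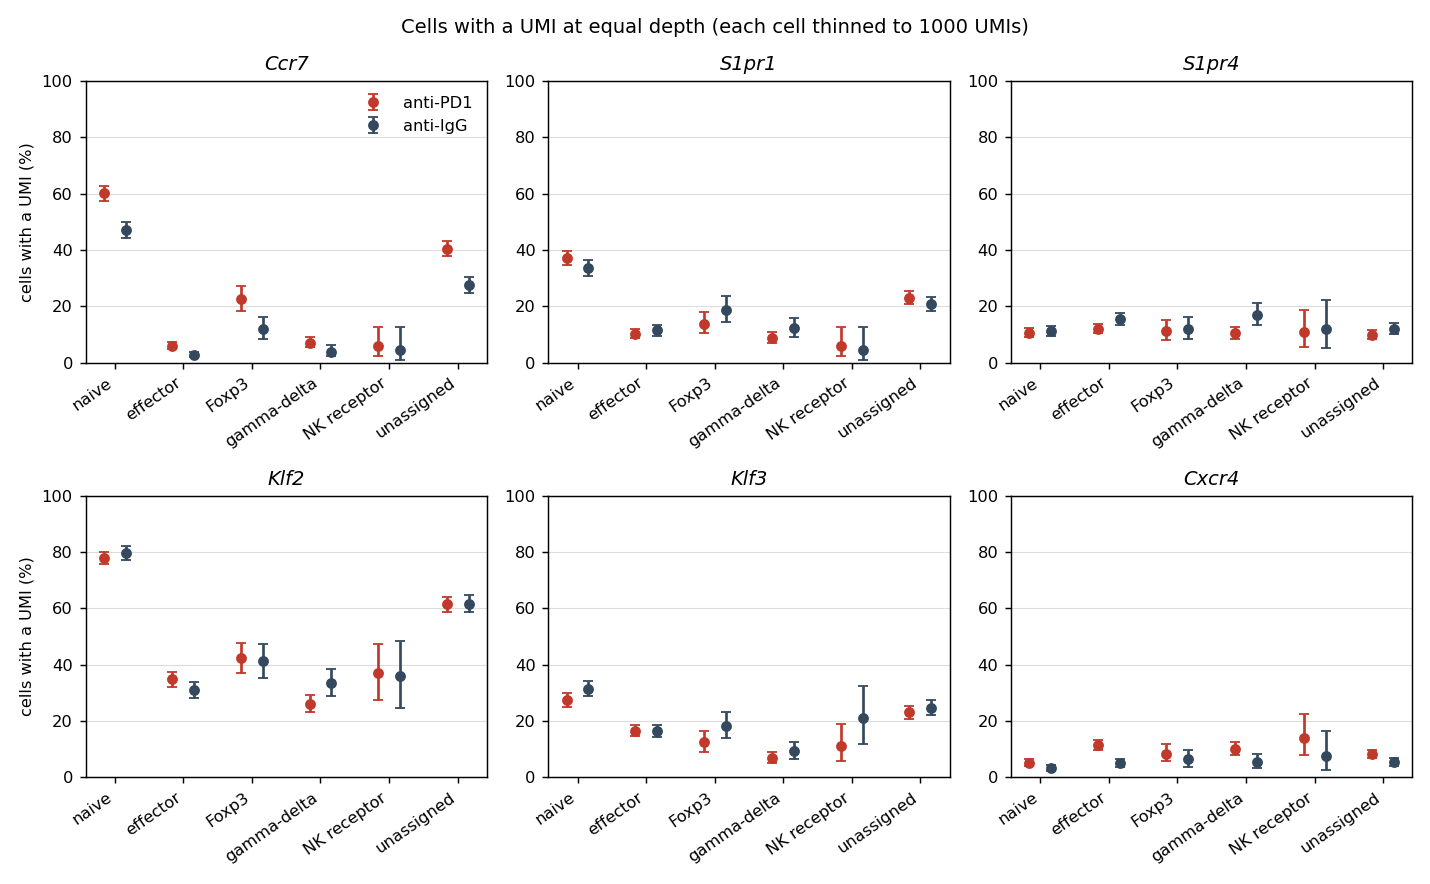
Share of cells with at least 1 UMI of each gene after thinning every cell to 1000 UMIs (percent, linear axis from 0), by gate, with anti-PD1 in red left of anti-IgG in dark blue; points are 1 library and bars exact 95% binomial intervals. Ccr7 is seen in 60.1% and 47.2% of naive cells, far above its share in the effector gate, while the shares for S1pr4 differ little between gates.

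Other genes of these pathways were taken from 5 lists of 65 genes, counted past 1.5-fold between the libraries as above. Over all genes tested, 5.88% were that much higher and 11.8% that much lower in anti-PD1 cells. Of 11 other homing and adhesion receptors, all tested, 1 was higher and 3 lower in anti-PD1 cells, with a median log2 ratio of -0.14 beside -0.13 for all genes. The highest ratios were those of Cxcr5, the receptor that leads lymphocytes to B cell follicles, at 1.65 (1.27 to 2.17), and Gpr183, a receptor for oxysterols, at 1.15 (1.097 to 1.201). The lowest were those of Ccr9, the gut homing receptor, at 0.566 (0.499 to 0.641), and Cxcr3, a receptor of effector T cells for interferon-induced chemokines, at 0.569 (0.5402 to 0.5996). Ccr9 had a ratio of 0.2697 (0.184 to 0.388) in naive cells but 1.64 (1.08 to 2.54) in effector cells.

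Of 12 genes of sphingosine 1-phosphate reception and turnover, 8 had enough UMIs, of which 0 were higher and 2 lower in anti-PD1 cells, with a median log2 ratio of -0.43. Sgpl1, the lyase that breaks the lipid down, had the highest ratio at 1.03 (0.918 to 1.16), followed by the phosphatase Sgpp1 at 0.836 (0.763 to 0.917). The lipid phosphatases Plpp1 and Plpp3 had the lowest, at 0.6097 (0.402 to 0.9196) and 0.621 (0.448 to 0.859). These 2 rest on few UMIs, and the gates went opposite ways. Plpp1 had a ratio of 6.42 (1.49 to 57.9) in naive cells (17 UMIs in all) and 0.137 (0.0523 to 0.307) in unassigned cells (52 UMIs). For Plpp3, all 51 UMIs in naive cells were from the anti-PD1 library, while the unassigned ratio was 0.169 (0.0855 to 0.308). Of 5 ligands and scavengers, 2 had enough UMIs in these cells, Cxcl12, the ligand of Cxcr4, at 0.776 (0.623 to 0.966) and its scavenging receptor Ackr3 at 0.767 (0.464 to 1.27), and neither was past 1.5-fold. Cxcl12 too went opposite ways between gates, with a ratio of 36.5 (12.2 to 179.5) in naive cells, 0.0256 (0.00304 to 0.0964) in effector cells and 0.3404 (0.226 to 0.502) in unassigned cells. Fibroblast markers in the naive gate stood at 173 CPM in anti-PD1 and 3.54 CPM in anti-IgG cells, with at least 2 such UMIs in 3 and 2 cells, and their part in these ratios was not tested.

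All 23 genes of Gi signalling and desensitisation, through which chemokine receptors act, were tested; 2 were higher and 0 lower, with a median log2 ratio of -0.06. Those 2 were Rgs16 at 3.45 (2.93 to 4.08) and Rgs2 at 2.21 (2.09 to 2.33), both members of the family of RGS proteins that shorten G protein signals. The lowest were Rgs18 at 0.707 (0.432 to 1.15) and Rassf5, an adaptor of integrin activation, at 0.757 (0.717 to 0.799). Of 14 KLF and FOXO regulators, all tested, 3 were higher and 1 lower, with a median log2 ratio of 0.13. Klf11 and Klf10, repressors of the TGF-beta early response group, had ratios of 2.24 (1.88 to 2.68) and 2.19 (1.905 to 2.53), while Klf12 at 0.634 (0.427 to 0.939) and Foxp1, a factor of T cell quiescence, at 0.824 (0.794 to 0.854) were lowest. Naive over effector, at least 1.5-fold higher in both libraries were 0 of 10 tested homing genes, 0 of 6 sphingosine 1-phosphate genes, 2 of 21 Gi genes and 4 of 13 KLF and FOXO regulators. Over all genes, 8.84% were that much higher in anti-PD1 and 8.84% in anti-IgG cells, each library taken alone. At least 1.5-fold lower in both were 6 of 10, 2 of 6, 4 of 21 and 2 of 13 genes of these lists, beside the 26% of all genes in anti-PD1 and 25.9% in anti-IgG cells.

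**Figure D4:**
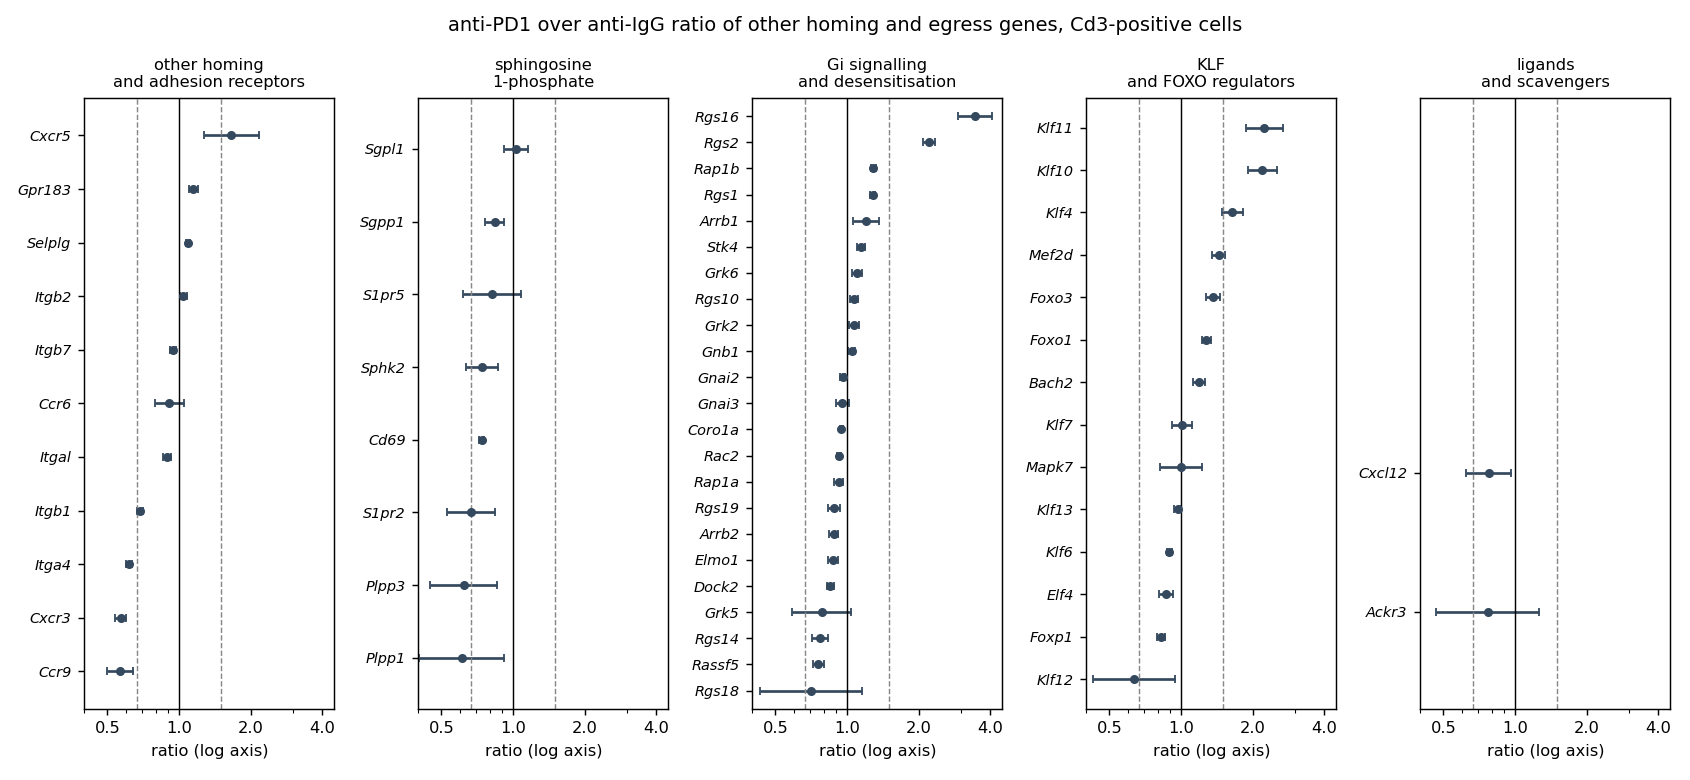
Anti-PD1 over anti-IgG ratio (log axis) in Cd3-positive cells of every listed gene with at least 50 summed UMIs; points are ratios of 2 libraries, bars exact 95% counting intervals, the solid line equal levels and the dashed lines 1.5-fold. Rgs16, Klf11, Rgs2 and Klf10 lie farthest right, and Ccr9 and Cxcr3 farthest left.

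Over the 12 sums of 6 gates and 2 libraries, the levels of S1pr1 and Klf2 ran together (Pearson r = 0.951 on log2(CPM + 10)), as did those of Ccr7 and Klf2 (0.891), Klf2 and Klf3 (0.882) and Ccr7 and S1pr1 (0.833), whereas Ccr7 and Cxcr4 did not (-0.199). These sums share 2 libraries and their gates, so the values describe likeness only. Among 9962 genes, the 3 most like Ccr7 were Gm37248 (0.982), C230085N15Rik (0.963) and Patj (0.960). Those most like Klf2 were Rpl10a, a ribosomal protein gene (0.978), Rflnb (0.977) and Slc49a4 (0.969), and those most like Klf3 were 3 ribosomal protein genes, Rps15a (0.966), Rpl29 (0.948) and Rpl22l1 (0.947). For S1pr1 they were Naca (0.981), Npc2 (0.956) and Pdlim4 (0.955), and for S1pr4 Kdm4c (0.947), Tomm6 (0.942) and Rbx1 (0.937). The genes most like Cxcr4 were Nr4a2, an early response relative of Nr4a1 (0.978), Klf10 (0.968) and Arf4 (0.961); Nr4a2 stood at 215.9 CPM in anti-PD1 and 31.0 CPM in anti-IgG effector cells.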

How the data were processed

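Heart cells from 1 anti-PD1 and 1 anti-IgG group were made into droplet-based 3′ single-cell libraries, per the labels' protocols; a sort of T cells is named in the series design and not in those protocols. The authors deposited raw UMI counts for each gene in each called cell. Cell Ranger appears as version 7.1.0 per the file headers, and as 7.2.0 per the submitters' processing notes, along with Seurat 4.4.0 and mm10. Gene coordinates are those of GENCODE vM21 (GRCm38), which held 52081 of the 55357 IDs; which annotation the authors used is not stated in the labels or headers.

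Barcodes under 300 genes or 500 UMIs, or over 10% mitochondrial UMIs, were dropped, and Cd3-positive cells had at least 1 UMI over Cd3d, Cd3e and Cd3g. Gates were assigned in the order NK receptor (sum of at least 2), gamma-delta (2), Foxp3 (1), naive and effector (2, with at most 1 UMI of the other's markers). UMIs were summed per library and gate and divided by all UMIs of those cells. Ratios have exact intervals conditional on the summed UMIs, levels exact Poisson and shares Clopper-Pearson intervals; UMIs that lie together in few cells make them too narrow. Shares were compared after thinning to 1000 UMIs. Scrublet marked 4 and 0 cells by its own threshold, too few to be a working call, so doublets were kept and removal of the 272 and 149 highest-scoring cells, at 0.8% per 1000 cells, was an alternative.

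The genes, lists, gates and thresholds were chosen with earlier results of these data known. The genes named beside the 6 members are the 2 highest and 2 lowest ratios of each list and the 3 most alike genes per member; 1 gene of the homing list is not reported here, and the counts leave it out. Python 3.11.15, numpy 2.4.6, scipy 1.17.1, pandas 2.3.3, scanpy 1.11.5 and matplotlib 3.10.9 were used, and the ratios were tested on simulated data.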

Additional observations from a re-analysis of the deposited data

Results flagged for a closer look

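The anti-PD1 over anti-IgG ratio of S1pr1 lay on different sides of 1 in different gates, with intervals that excluded 1. It was above 1 in naive (1.17) and unassigned cells (1.07), and below 1 in Foxp3 (0.761) and gamma-delta cells (0.714). Klf2 did the same, above 1 in effector cells (1.14) and below 1 in Foxp3 (0.882) and gamma-delta cells (0.773). The Foxp3 values of both genes lay above 1 among cells without an Nr4a1 UMI, at 1.67 for S1pr1 and 1.37 for Klf2. Those cells were shallower than the rest of the Foxp3 gate in both libraries. With 1 library per group the difference between gates was not tested.

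Signals were also seen in cells with no Cd3 UMI, which the comparisons of T cells leave out. Among cells gated on B cell markers (133 anti-PD1 and 56 anti-IgG cells) the ratio was 2.11 (1.71 to 2.62) for Ccr7 and 1.93 (1.13 to 3.46) for Cxcr4. Among those gated on myeloid markers (135 and 71) it was 1.799 (1.59 to 2.04) for Klf2 and 1.52 (1.04 to 2.24) for Cxcr4. Ccr7 had 59 UMIs in anti-PD1 and 1 in anti-IgG cells of the myeloid gate, a ratio of 36.7 (6.33 to 1473), and 52 of the 59 came from 1 cell. Among those gated on fibroblast markers (19 and 20) Klf2 had a ratio of 2.72 (1.996 to 3.76), and 71 of its 181 anti-PD1 UMIs came from 1 cell.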

How the results depend on the processing

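No paired analysis was possible because each group is 1 library and the labels give no replicate numbers. Over the alternatives run, the Ccr7 ratio between libraries ranged from 1.67 to 2.26 and that of Cxcr4 from 1.62 to 2.14, both past 1.5 throughout, and 4 of 6 genes were higher in naive than in effector cells in each alternative run for that count. S1pr4 (0.815 to 0.927) and Klf3 (0.818 to 0.980) stayed below 1, while S1pr1 (0.992 to 1.33) and Klf2 (0.936 to 1.21) lay on both sides.

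Divided by the median gene, the ratios were 1.86 for Ccr7, 1.09 for S1pr1, 0.927 for S1pr4, 1.04 for Klf2, 0.916 for Klf3 and 2.14 for Cxcr4, by the construction of that scaling. Without cells holding an Nr4a1 UMI they were 2.26 for Ccr7, 1.33 for S1pr1, 1.21 for Klf2, 0.9805 for Klf3 and 1.62 for Cxcr4. With the same gate mix, Ccr7 was at 1.82, Klf2 at 1.0002 and Klf3 at 0.877, and without cells with markers of other lineages Ccr7 was at 1.77, S1pr1 at 1.04 and Klf3 at 0.883. Klf2 was at 0.987 with each cell weighted alike, 0.983 after thinning to 1000 UMIs (Klf3 0.885), 0.936 in cells with at least 1000 genes and 0.9396 without the 1% of cells with most of its UMIs, an alternative added after the data were seen, as was leaving out the shared barcodes. Ccr7 turned round in the gamma-delta gate without Nr4a1 cells (0.766), and in the NK receptor gate after thinning (0.938), without Nr4a1 cells (0) and, in an alternative added after the data were seen, without cells with markers of other lineages (0.785). The cause of these changes was not tested. Of the other values within and between single gates, 121 moved by less than their counting interval and 67 by more. Values of other genes crossed 1 as well. Without Nr4a1 cells the Foxp3 ratio went from 0.761 to 1.67 for S1pr1 and from 0.882 to 1.37 for Klf2.

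Genes at least 1.5-fold higher and lower numbered 475 and 732 with a minimum of 200 summed UMIs, 1473 and 2944 with a minimum of 10, and 517 and 897 after thinning, each with a different number of genes tested. Depth limits the gates with few cells, above all the NK receptor gate.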

Other observations

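S1pr1 was seen in a larger share of cells with a Klf2 UMI than of cells without one, within a gate as well as between gates. After thinning to 1000 UMIs, S1pr1 was seen in 15.04% of anti-PD1 effector cells with a Klf2 UMI and 7.67% of those without, and in 17.7% and 8.59% of anti-IgG effector cells. In the naive gate these shares were 39.1% and 29.7% in anti-PD1 cells, and 35.2% and 27.2% in anti-IgG cells, where the intervals overlapped. Ccr7 and S1pr1 showed no such pattern among naive cells. S1pr1 was seen in 36.2% of anti-PD1 naive cells with Ccr7 and 38.2% of those without. In anti-IgG naive cells these shares were 33.6% and 33.6%. Some other gates did show it. In anti-PD1 cells the shares were 25% and 7.39% in the gamma-delta gate, and 28.98% and 19.04% in unassigned cells. The effector shares were 18.99% and 9.695% in anti-PD1 and 13.8% and 11.3% in anti-IgG cells, with overlapping intervals in both. The NK receptor gates held too few cells with Ccr7 to read a direction, with S1pr1 in 0 of 6 anti-PD1 and 0 of 3 anti-IgG cells. Over all thinned cells of these gates, S1pr1 was seen in 6% and 4.48%. The cells of a gate come from 1 library each, so these are descriptions with no test.

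Cells with an Nr4a1 UMI were also compared with the rest within each library. In anti-PD1 Cd3-positive cells Ccr7 stood at 486 CPM with Nr4a1 and 737 CPM without, and Cxcr4 at 111 and 74.1 CPM. In anti-IgG cells Ccr7 stood at 335 and 327 CPM, with overlapping intervals, and Cxcr4 at 64.6 and 45.7 CPM. The pooled Ccr7 values did not hold in every gate. In anti-PD1 cells Ccr7 stood lower with Nr4a1 than without in the Foxp3 gate (320.3 and 623 CPM) and in unassigned cells (678 and 888 CPM). It stood higher with Nr4a1 in the gamma-delta gate (189 and 54.5 CPM). In the effector gate the levels were 135 (124 to 146) and 112 (96.8 to 129) CPM, with overlapping intervals. Naive cells had 1362 and 1289 CPM in the anti-PD1 library, with overlapping intervals, and 983 and 773 CPM in the anti-IgG library.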
